A study of Drosophila melanogaster with 2 samples.

Results

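CG31441 and 9 other listed zinc-finger genes of Drosophila melanogaster, 10 of 13968 protein-coding genes, were examined for peaks of the tagged CG31441 protein itself. The genes were taken by symbol from the Ensembl annotation: CG31441, CG18476, M1BP, ouib, nom, ranshi, trem, pita, ZIPIC and dwg. The rule for the list used no measured value, but the genes were listed with earlier results of these data known. There was 1 group, with 2 biological replicates: whole embryos, 0 to 16 hours old and of unrecorded sex, from a strain with an insertion that expresses CG31441 fused to enhanced green fluorescent protein (CG31441-eGFP). Sonicated chromatin was precipitated with an antibody against the fluorescent protein and sequenced (ChIP-seq). The labels do not name the promoter that drives the fusion, do not say whether the insertion adds a copy of the locus, and give the same donor entry for both replicates. Control libraries were not analysed here, so no comparison between conditions was open. Peak positions came from 8 lists on assembly dm6, in which each peak has a summit and a signal from the authors' peak caller. The 4 lists of the series were made from both replicates. They are a conservative and a less strict list, which keep peaks whose rank repeats well, and 2 longer ranked lists with no threshold. Each replicate has 1 thresholded and 1 ranked list of its own. Read depth is unknown, and the scale of the signal can differ between lists, so signals are given with their rank within a list. Means and SDs over the replicates use the signals as deposited, so each SD includes any difference in scale between their lists.

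Proteins of this family carry a ZAD, an N-terminal zinc-finger-associated domain through which many of them pair with themselves, followed by C2H2 zinc fingers that bind DNA. The family is large in insects, and several members are known to sit at promoters or insulators. M1BP binds the core promoter element Motif 1. Pita, ZIPIC and Zw5, the product of dwg, are insulator proteins. trem is needed to start meiotic recombination in females. ouib is needed in the prothoracic gland for expression of a gene of steroid hormone synthesis. nom, ouib, ranshi and M1BP lie close together on 3R. No role is given here for CG31441 and CG18476 beyond their zinc fingers.

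CG18476 had one of the strongest peaks of all, between rank 3 and rank 7 in each of the 8 lists. CG31441, M1BP, trem and pita had weaker promoter peaks that were present in some lists and not in others. ouib, nom, ranshi, ZIPIC and dwg had no summit within 2 kb in any of the 8 lists. The strongest promoter summit of CG18476, CG31441, M1BP and trem, taken over the lists, lay between genes in sequence rich in A and T. It came from the conservative list at CG18476 and from a ranked list of the series at CG31441. At M1BP it came from the thresholded list of replicate 2, and at trem from that of replicate 1. The scale can differ between these lists. The 151 bases around each of these summits are shown because they are where the signal was highest, from the RefSeq genome of assembly dm6. Each is on the strand of the gene, 5′ to 3′, with the longest unbroken run of A and T in capitals (at trem, the first of 2 runs of equal length):
CG18476, minus strand, chr3R:11678157-11678307: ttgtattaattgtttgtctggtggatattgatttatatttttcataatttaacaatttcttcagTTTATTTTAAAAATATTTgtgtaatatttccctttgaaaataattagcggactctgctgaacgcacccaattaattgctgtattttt
CG31441, plus strand, chr3R:11236086-11236236: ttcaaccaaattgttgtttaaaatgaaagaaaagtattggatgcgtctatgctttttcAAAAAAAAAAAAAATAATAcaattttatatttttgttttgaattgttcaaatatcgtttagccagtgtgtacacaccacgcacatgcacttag
M1BP, minus strand, chr3R:8731855-8732005: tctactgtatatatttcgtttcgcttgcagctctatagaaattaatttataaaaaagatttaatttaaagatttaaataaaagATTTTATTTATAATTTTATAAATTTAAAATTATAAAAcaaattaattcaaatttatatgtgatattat
trem, minus strand, chr3R:20031379-20031529: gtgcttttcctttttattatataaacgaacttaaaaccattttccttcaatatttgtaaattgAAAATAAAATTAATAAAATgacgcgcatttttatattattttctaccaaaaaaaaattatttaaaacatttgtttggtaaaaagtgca

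The runs were 18 bases long at CG18476, 19 at CG31441, 37 at M1BP and 19 at trem. Across all 6476 conservative nuclear summits, the longest run in the same window had a median of 12 bases and a 90th percentile of 22. The run at M1BP was above that 90th percentile, and those at the other 3 genes were between the median and it. Of these genes, CG18476 alone has a promoter summit in the conservative list. The longest run was 15 bases at the M1BP summit of replicate 1, and 15 and 21 at the trem summits of replicate 2. At CG31441 and at the main summit of CG18476, the length was the same in each list that held the summit.

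In the conservative list, 2 of the 10 genes had a promoter summit, meaning one within 500 bp of an annotated transcription start site (TSS). These were CG18476 and pita. The share among all protein-coding genes was 18.2%, so the count is close to the background. The less strict list of the series gave the same pair, against a background of 21.0%. In the thresholded list of replicate 1 the genes were CG18476 and trem, 2 of 10 against 17.3%. In that of replicate 2 they were CG18476, M1BP, trem and pita, 4 of 10 against 18.4%. CG31441, CG18476, M1BP, trem and pita each had a promoter summit in the ranked lists of both replicates, 5 of 10 against 30.9% of all genes for both lists, 35.1% for replicate 1 and 43.1% for replicate 2. Of the 2 ranked lists made from both replicates, the one of true replicates held 3 of the genes, against 35.7%, and the other held 2, against 37.2%. At least 1 of the 8 lists held a promoter summit for 5 of the 10, against 49.2%. Both thresholded replicate lists held one for CG18476 and trem, 2 of 10 against 13.0%. Counted within 2 kb of the gene, the conservative list held summits for 3 genes, CG31441, CG18476 and pita, against 33.9% of all genes, and the less strict list for 2, without CG31441, against 37.6%. The ranked list of true replicates held 3, against 54.2%, and the other held 3, against 55.8%. The thresholded lists held 3 in replicate 1, against 31.3%, and 4 in replicate 2, against 34.6%. The ranked lists of the replicates held 5 each, against 55.6% in replicate 1 and 61.6% in replicate 2. No list held more than 5 of the 10 by either measure. No test was made on these counts, since the genes were listed with earlier results of these data known.

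**Figure D1:**
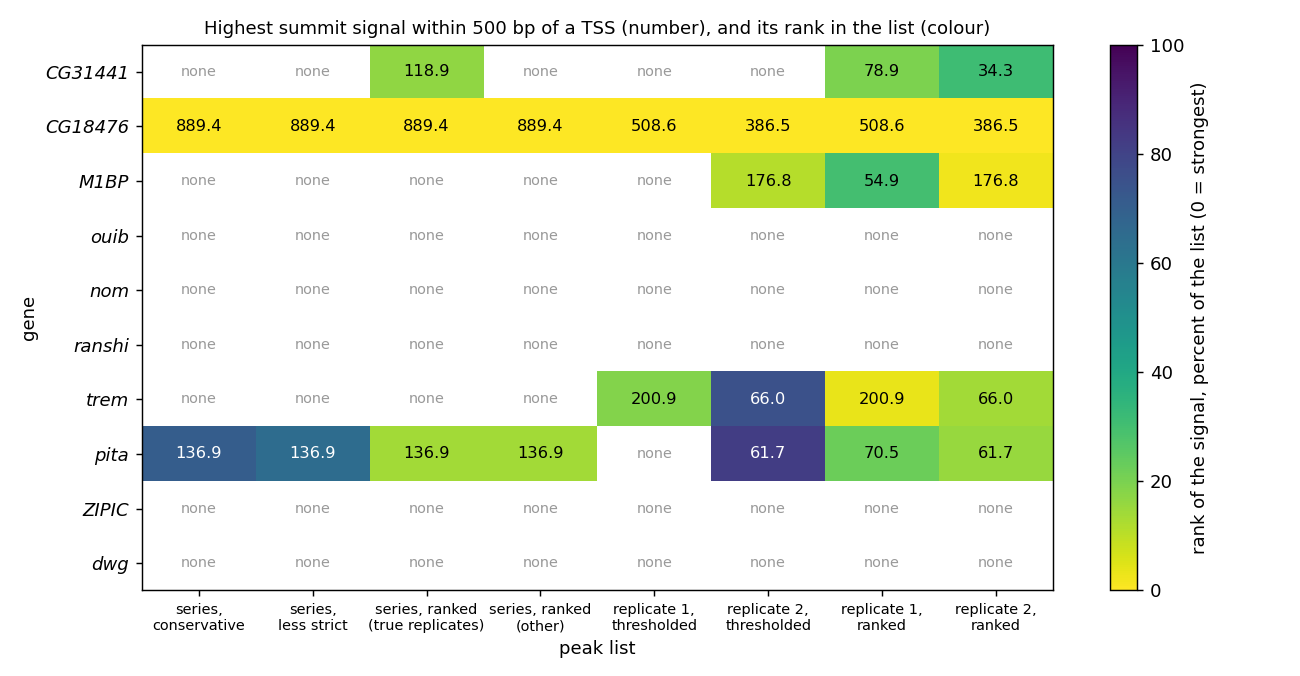
Highest signal of a summit within 500 bp of a TSS for each gene (rows) in each of the 8 peak lists (columns); the number is the authors' signal and the colour is its rank as a percent of that list, with 0 the strongest. CG18476 had a summit in all 8 lists, and 5 genes had none in any.

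CG31441, the tagged gene, had promoter summits in ranked lists and in no thresholded list. It (FBgn0051441) spans bases 11236286 to 11237624 of 3R on the plus strand, with 208 bp between it and the end of CG17721. A promoter summit was in the ranked list of replicate 1 at 130 bp upstream, with a signal of 78.9 and rank 5380 of 27371. In replicate 2 it was 71 bp upstream, with a signal of 34.3 and rank 9814 of 31490. Their mean was 56.6 ± 31.5 (SD, n = 2), and the summits were 59 bp apart. Both lay between genes. The ranked list of true replicates put the summit 125 bp upstream, with a signal of 118.9 and a scaled score of repeatability of 765, while the lowest score in the conservative list was 830. The second ranked list made from both replicates had no promoter summit for CG31441.

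The peak of the conservative list near CG31441 belonged by position to other genes. Its summit, with a signal of 142.0 and rank 4412 of 6501, lay 1093 bp upstream of the CG31441 TSS, in the 5' UTR of CG17721 and within 500 bp of the TSSs of CG17721 and of Arfip, an arfaptin gene. This peak was also in the ranked list of true replicates, but in neither the less strict list nor the other ranked list of the series. In the ranked lists of the replicates this site had signals of 74.1 and 57.0 (mean 65.5 ± 12.1, SD, n = 2). At 1.30, the ratio of replicate 1 to replicate 2 was close to the median of 1.44 over 15191 pairs of ranked summits. At the CG31441 promoter the ratio was 2.30, above that of 78.7% of pairs and below their 90th percentile of 3.27.

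CG18476, a gene for a long protein of the family, carried the strongest signal of the 10 genes. It lies on 3R from 11674920 to 11678116 on the minus strand (FBgn0037931), 269 bp downstream of Taf12, which encodes a subunit of the general transcription factor TFIID. In the conservative list its signal of 889.4 was rank 3 of 6501, with the summit 116 bp upstream of the TSS, between the 2 genes. Replicate 1 had 508.6 at 109 bp upstream, rank 3 of 4964, and replicate 2 had 386.5 at 142 bp upstream, rank 7 of 5484. The mean was 448 ± 86.3 (SD, n = 2), and the summits were 33 bp apart, against a median of 36 bp over all pairs of ranked summits. The ratio between the replicates was 1.32, near the median of all pairs. CG18476 was the one gene of the 10 whose promoter summit lay within 500 bp of no other gene's TSS and was thresholded in both replicates.

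The same peak held a further summit whose signal differed between the replicates. It lay 368 bp upstream of CG18476 in the 3' UTR of Taf12, with a conservative signal of 249.5. Replicate 1 gave 356.5 there and replicate 2 gave 50.6 (mean 204 ± 216, SD, n = 2). The ratio of 7.05 was above that of 98.4% of all pairs, whose 90th percentile was 3.27. The SD was larger than the mean.

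A pair of other sites near CG18476 belonged by position to its neighbours. One summit lay 1581 bp upstream, within 500 bp of the TSSs of Taf12 and of Ho, the heme oxygenase gene, which start 53 bp apart in opposite directions. Its conservative signal was 400.3, rank 608, with 265.0 in replicate 1 and 138.6 in replicate 2 (mean 202 ± 89.4, SD, n = 2). The other lay past the 3' end of the gene, within 500 bp of the start of CG14715, with a conservative signal of 209.4 and values of 129.5 and 83.1 in the replicates. The region around CG18476 thus held 4 conservative summits within 2 kb of the gene, 2 of them at its own promoter.

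**Figure D2:**
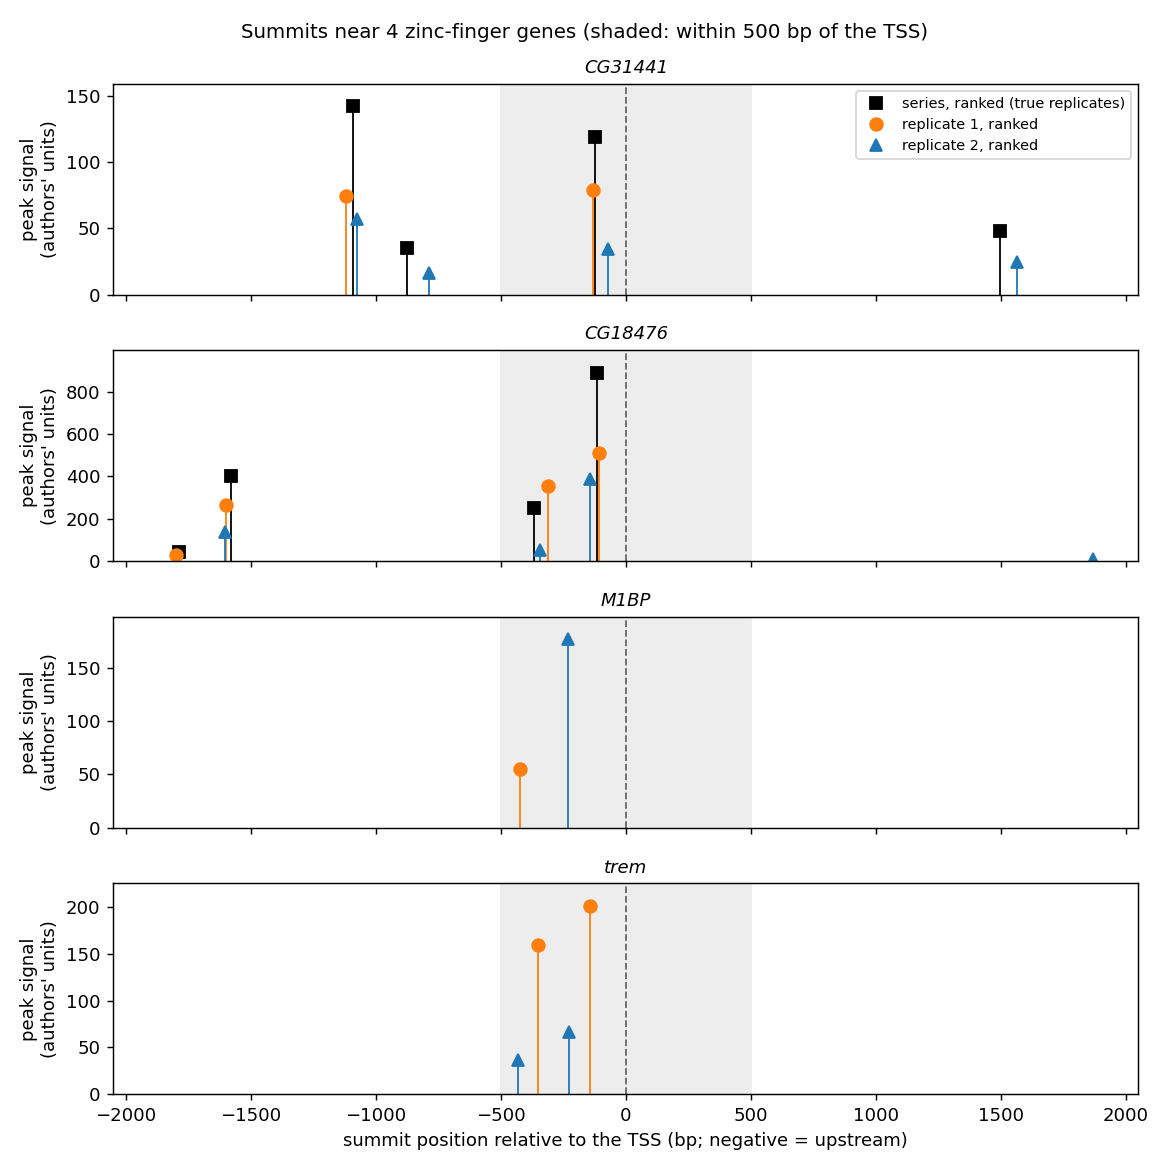
Summits within 2 kb of the TSS of CG31441, CG18476, M1BP and trem in the ranked list of true replicates (squares) and the ranked lists of replicate 1 (circles) and replicate 2 (triangles); x is the distance from the TSS in bp and y the authors' signal, with a separate scale per gene. The summits of CG18476 near 116 bp upstream stand out in all 3 lists, while M1BP and trem have summits of the replicates and none of the series.

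trem had thresholded promoter peaks in both replicates but no peak in any of the 4 series lists. The gene (FBgn0038767) lies on 3R from 20029560 to 20031309 on the minus strand, and its TSS is 514 bp from that of idc, which runs the other way. Replicate 1 had summits 145 and 350 bp upstream, with signals of 200.9 (rank 923 of 4964) and 159.4. Replicate 2 had summits 228 and 431 bp upstream, with signals of 66.0 (rank 4132 of 5484) and 36.0. The nearer pair averaged 133 ± 95.4 (SD, n = 2), with a ratio of 3.04 that was above 88.3% of all pairs. Within each replicate the summit nearer to trem was the higher one. The promoter summits of trem were also within 500 bp of the TSS of idc, and which of the 2 genes they belong to was not tested.

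The absence of trem from the series lists was uncommon among peaks thresholded in both replicates. Of 3958 peaks of replicate 1 that overlapped a thresholded peak of replicate 2, 37 (0.935%) overlapped no peak in either ranked list of the series, and the higher trem peak was the 6th strongest of these. By genes, 1815 had promoter summits in the thresholded lists of both replicates. Of these, 70 had none in a thresholded list of the series, which is 0.501% of all protein-coding genes. How the series lists came to lack these peaks was not tested.

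M1BP had a thresholded peak in replicate 2 alone. The gene (FBgn0037621) lies on 3R from 8729790 to 8731698 on the minus strand, and its TSS is 393 bp from that of CG8202, which runs the other way. The summit in replicate 2 was 232 bp upstream, with a signal of 176.8 and rank 615 of 5484, between the 2 genes. The ranked list of replicate 1 held a summit 422 bp upstream, in the 5' UTR of CG8202, with a signal of 54.9 and rank 8200 of 27371. The peaks themselves overlapped, from 8731642 to 8732168 in replicate 1 and from 8731675 to 8732128 in replicate 2. Their summits were too far apart to be matched between the replicates, so no mean is given. Both summits were also within 500 bp of the TSS of CG8202. The series lists held no peak there.

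pita had its conservative promoter summit downstream of the TSS. It lies on 2R from 23548967 to 23554712 on the minus strand (FBgn0034878) and has 2 TSSs. The conservative summit was 131 bp downstream of the inner one, in the 5' UTR of pita and of Dcp-1, an effector caspase gene that overlaps it on the other strand and starts 238 bp away. Its signal was 136.9, rank 4587 of 6501. In the ranked lists of the replicates a summit there had signals of 70.5 and 55.2 (mean 62.9 ± 10.8, SD, n = 2). In the thresholded list of replicate 2, the promoter summit lay 338 bp downstream with a signal of 61.7, and the thresholded list of replicate 1 held none. At the outer TSS, the ranked lists held summits 30 and 53 bp downstream, with signals of 64.3 and 31.6, which reached no thresholded list. A stronger peak beyond the 3' end of pita, at levy, a cytochrome c oxidase subunit gene, and wmd, had 284.9 in the less strict list. Overlapping peaks were in the thresholded lists of both replicates, at 183.3 and 109.1, and the conservative list held none there.

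The genes with no summit lay in stretches that were poor in peaks to different degrees. nom (FBgn0037617), ouib (FBgn0037618), ranshi (FBgn0037620) and M1BP stand with CG8159 in a row of 5 genes on 3R from 8723174 to 8731698, and 0 summits of the 8 lists lay inside these 8525 bp. The nearest summit of any list was 2237 bp from ranshi, the M1BP summit of replicate 2, which put ranshi just outside the distance of 2 kb. It was 5200 bp from ouib and 6573 bp from nom. Of all genes, 30.9% were at least as far from a summit as ranshi, 18.7% as ouib and 14.9% as nom. ZIPIC (FBgn0039740, on 3R from 30035240 to 30036870) had its nearest summit at 6413 bp, which 15.3% of all genes reached or passed. dwg (FBgn0000520, on X from 2727698 to 2730042) had it at 13251 bp, a distance that 6.17% of all genes reached or passed. The median over all genes was 189 bp. With the conservative list alone the median was 5693 bp, and 23.5% to 39.1% of genes were at least as far as each of these 5 genes. Having no summit within 2 kb in any list was common, at 32.4% of all protein-coding genes, against 5 of these 10. With depth unknown, these genes are only not detected in the lists.

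The 500 bp limit decided few of these calls. The outermost summits counted were those of trem at 431 bp and of M1BP at 422 bp upstream. The nearest ones not counted were those of pita at 781 bp and of CG31441 at 789 bp, both in the ranked list of replicate 2, with signals of 17.9 and 16.1.

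The promoters of CG18476, M1BP, trem and CG31441, whose strongest promoter summits lay upstream, were among the poorest in G and C. pita had weaker upstream summits in ranked lists, beside its stronger ones downstream. In the 101 bp centred 150 bp upstream of the gene's start, the content was 17.8% at CG18476 and M1BP, 18.8% at trem and 19.8% at CG31441. It was 22.8% at pita, 23.8% at ouib, 25.7% at dwg, 29.7% at ZIPIC, 31.7% at ranshi and 36.6% at nom. The 4 genes whose summit sequences are shown above were thus the lowest 4 of the 10. The median of all genes was 34.7%. Over the whole annotation, base composition moved with peaks. A conservative promoter summit was present at 32.6% of the 767 genes under 20%, and at 24.9%, 15.6% and 12.4% of genes in the bands from 20%, 30% and 40% upward. Of the 4 lowest listed genes, CG18476 alone had a promoter summit in that list. The other listed gene with one, pita, is in the band from 20%. The part of base composition in the results for these genes was not tested.

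**Figure D3:**
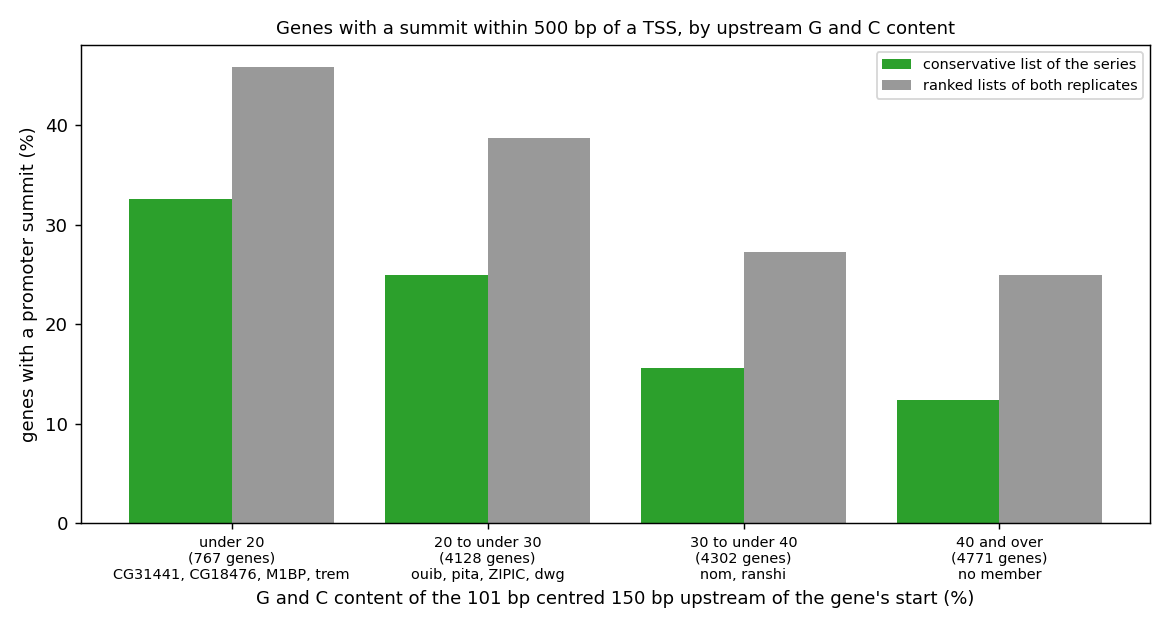
Percent of protein-coding genes with a promoter summit in the conservative list (green) and in the ranked lists of both replicates (grey), by the G and C content 150 bp upstream of the gene's start, with the listed genes named under their band. The share is highest, 32.6% and 45.8%, in the band that holds CG31441, CG18476, M1BP and trem.

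At the summits themselves the content was also low for these 4 genes, and it was higher at pita. The summit windows of the 4 genes overlap their upstream windows, in small part at M1BP, so this is not a separate observation. For pita the upstream window lies at the outer TSS and the strongest promoter summit at the inner one. The 101 bp at the strongest promoter summit held 9.90% G and C at M1BP, 18.8% at trem, 21.8% at CG18476 and 22.8% at CG31441, and 47.5% at pita. All conservative promoter summits had a median of 30.7%, with 19.8% at the 10th and 48.5% at the 90th percentile. Of these, 0.127% were as poor in G and C as the M1BP summit. The value depended on the list: the summit of replicate 1 at M1BP held 47.5%, that of replicate 2 at CG31441 held 35.6%, and the nearer one of replicate 2 at trem held 29.7%. Soft-masked bases, which mark repeats and simple sequence, made up 92.1% of that window at M1BP, 100% at trem, 62.4% at CG18476 and 65.3% at CG31441, and 0% at pita. How masking and mapping bear on these summits was not tested.

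**Figure D4:**
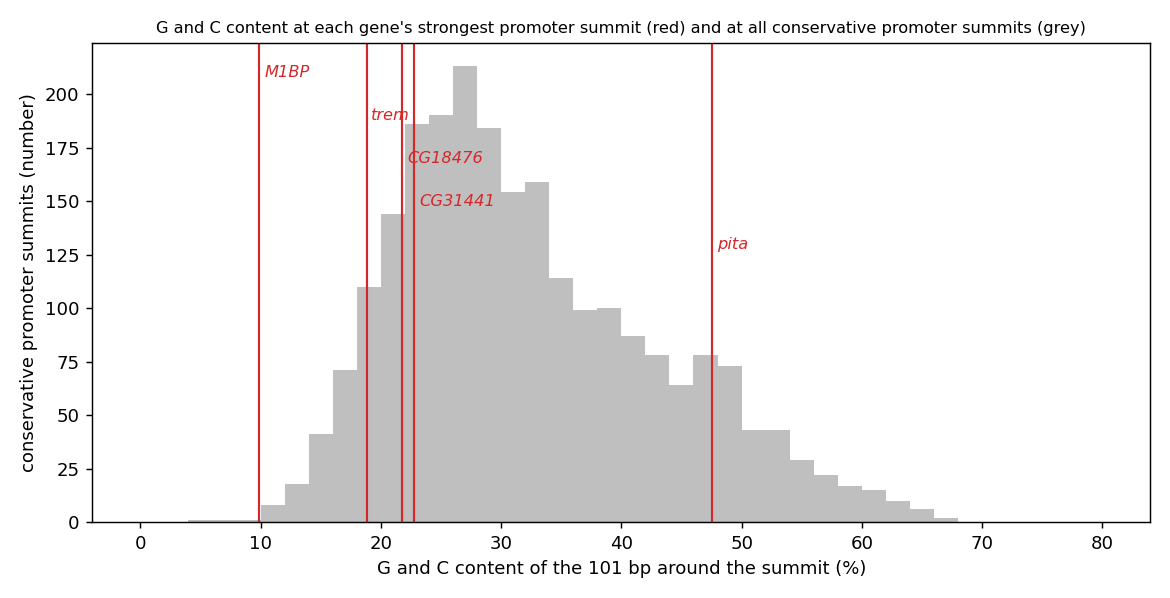
Number of conservative promoter summits by G and C content of the surrounding 101 bp (grey), with red lines at the strongest promoter summit of each of 5 genes in any list. M1BP, trem, CG18476 and CG31441 lie between 9.90% and 22.8%, below the median of 30.7%, and pita lies above it at 47.5%.

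Short motifs, 4 in all, were searched on both strands, in 301 bp from 250 bp upstream to 50 bp downstream of the gene's start and in 301 bp around each summit. The core of Motif 1 (GGTCACAC), the element that M1BP binds, was in the promoter window of ZIPIC alone, against 7.7% of all promoter windows. The DNA replication-related element DRE (TATCGATA) was in that of pita alone, against 9.36%. The E-box CAGCTG was in those of CG31441 and ranshi, against 17.7%. It was also in the windows of the CG31441 promoter summits of 3 lists, which overlap each other. The GAGA repeat (GAGAGAG) was in none of the 10 promoter windows, against 5.86%. Around summits it was found at 3 weaker ones of pita, against 7.96% of conservative promoter summits. The E-box was also in the windows of 5 promoter summits of pita, the conservative one among them, the further summit of CG18476 and the summit of replicate 1 at M1BP, against 17.2% of conservative promoter summits, and the DRE was at the summits 30 and 53 bp downstream of the outer TSS of pita, against 9.32%. Windows of neighbouring summits, and of the same site in different lists, overlap and can hold the same word. The matches are therefore not counts of separate sites. None of the 4 words is contained in another. The windows of the main upstream summits of CG18476, M1BP and trem held no match of the 4.

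The proteins, translated from the longest annotated coding sequence, ranged from 312 residues at ouib to 936 at CG18476. All 10 matched the pattern set for a ZAD. CG31441, M1BP, ouib, nom, ranshi and trem had 5 matches of the C2H2 pattern each, ZIPIC had 6, dwg 8, pita 10 and CG18476 15. CG31441, at 341 residues, was most like ranshi, with 30.6% identity over the global alignment, and then M1BP, with 27.8%. The highest identity of the 45 pairs was 36.7%, between M1BP and ranshi, and the median was 20.8%. CG18476 and CG31441 shared 12.4%, or 116 of 939 alignment columns. Columns with gaps were counted, so a difference in length lowers the value. ranshi, the most similar to CG31441, had no summit within 2 kb in any list.

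Of 12 further ZAD genes listed by name, 4 (33.3%) had a conservative promoter summit, against 18.2% of all genes. They were Meics, a meiotic spindle gene (336.8), D19B (279.0), pad (269.2) and D19A (187.0), with summits from 174 to 275 bp upstream. The summits of D19B and pad were in thresholded peaks of both replicates, where the highest promoter signals were 139.4 and 143.0 for D19B and 160.3 and 106.9 for pad. For Meics and D19A, replicate 1 had a thresholded peak over the summit and replicate 2 had none over it. D19A still had thresholded promoter summits in both, with highest signals of 101.7 in replicate 1 and 88.7 in replicate 2, and Meics had 274.2 in replicate 1 and none in replicate 2. grau, wek, hang, Sry-delta, Sry-beta, Zif, Neu2 and kipf had none in the conservative list. Of all 22 named ZAD genes, 20 matched the pattern set for a ZAD, all but hang and Neu2. Each of the 4 summits was also within 500 bp of another gene's TSS.

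**Figure D5:**
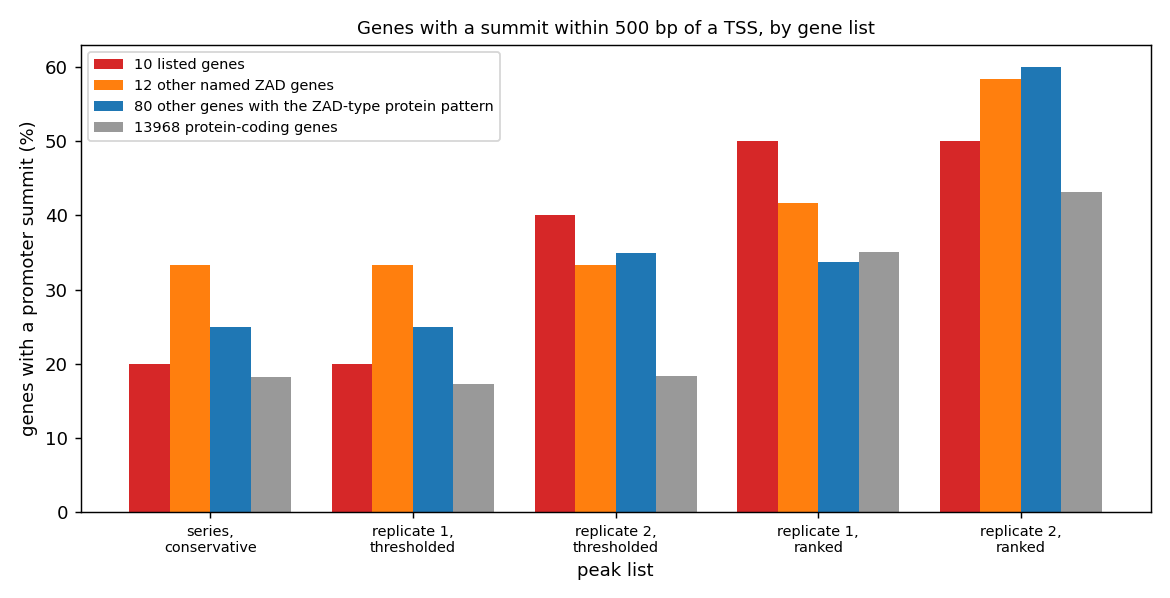
Percent of genes with a promoter summit in 5 of the peak lists, for the 10 listed genes, 12 other named ZAD genes, 80 genes outside the 10 whose protein matches the ZAD-type pattern, and all 13968 protein-coding genes. The sets of 12 and 80 overlap. In the conservative list 2 of the 10 listed genes had one, against 18.2% of all genes.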

How the data were processed

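The 2 samples are ChIP-seq libraries, replicates 1 and 2 per the labels. The signal of each peak, on a scale not stated, and the score, a scaled irreproducible discovery rate (IDR) with a highest value of 1000, are as deposited by the authors. Alignments of both replicates went into the 4 lists of the series and those of 1 replicate into the others, each with 1 further input file, according to the deposited readme files. The sources used here name no aligner or peak caller. Across the 2 ranked series lists, 16 columns that no label ties to a replicate were not used. Genes came from Ensembl release 115 (BDGP 6.54), sequence from RefSeq, both on dm6. The list of true replicates was taken as the ranked list that held every conservative peak with the same score.

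Summits were assigned by distance to any annotated TSS of a protein-coding gene. Replicate summits were matched as nearest to each other within 150 bp. Proteins were aligned globally with BLOSUM62 (gap costs 10 and 0.5). The promoter calls were tested on simulated data. The genes and lists were chosen with earlier results of these data known. All 10 genes are named, with those whose TSS lies within 500 bp of the same summit, and of the wider list the highest 10 found in both replicates. With 1 group, no test between groups was made. Whether the replicates came from separate collections is not stated. Alternatives covered the list, window, distance, TSS set, overlap of at least 1 bp, merging and each replicate alone. Python 3.11.15, numpy 2.4.6, pandas 2.3.3, Biopython 1.88 and matplotlib 3.10.9 were used.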

Additional observations from a re-analysis of the deposited data

How the results depend on the processing

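The count of 2 genes with a conservative promoter summit changed by more than 1.5 times under few settings. It was 1 with scores at the cap and 1 with the gene's 5' end as its sole TSS, both times CG18476. It was 2 and 4 in the thresholded lists of replicates 1 and 2, and 5 in the ranked list of each replicate. Adding peaks thresholded in both replicates but missing from the series, a setting chosen after seeing the data, gave 3, with trem. The count within 2 kb of the gene was 3. It stayed within 1.5 times of that, from 2 to 4, except in the ranked list of each replicate, where it was 5. The signal of CG18476 was 889.4 in each series list and 386.5 to 508.6 in the lists of single replicates. That of pita was 136.9 in each series list and 61.7 in replicate 2. The thresholded list of replicate 1 gave no value, and its ranked list gave 70.5. Among all genes, the background of 18.2% was 35.7% and 37.2% in the ranked series lists. It was 17.3% and 18.4% in the thresholded lists of replicates 1 and 2, and 35.1% and 43.1% in their ranked lists. Of the 22 named ZAD genes 27.3% had a conservative promoter summit, with 24.4% of genes of the protein pattern and 23.3% of all C2H2 genes. The share of the 22 was 27.3% and 36.4% in the thresholded lists of replicates 1 and 2, and 45.5% and 54.5% in their ranked lists. No paired analysis was possible because the series has 1 group. Depth is unknown, so a missing peak shows no absence of binding.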

Other observations

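A wider family was drawn by patterns for the ZAD and for at least 3 C2H2 fingers. Applying them to translated coding sequences was chosen after seeing the data. The family held 90 genes, the 10 listed ones among them. Of the 80 others, 20 (25.0%) had a conservative promoter summit, against 18.2% of all protein-coding genes. Meics, D19B, pad and D19A are among these 20, so this share is not separate from that of the further named ZAD genes. The shares were 25.0% in the thresholded list of replicate 1 and 35.0% in that of replicate 2, against 17.3% and 18.4% of all genes. In the ranked lists the order varied. The shares were 31.25% in that of true replicates, against 35.7% of all genes, 33.75% in the other one of the series, against 37.2%, 33.75% in replicate 1, against 35.1%, and 48 of the 80 in replicate 2, against 43.1%. The strongest summits found in both replicates after that of CG18476 were at CG1792 (544.0), CG10147 (509.2), CG3281 (434.0), CG8319 (379.5), CG4820 (369.8), CG3032 (293.4), D19B (279.0), pad (269.2) and CG17385 (258.9). CG3281 shares its summit with aurA, which encodes a mitotic kinase, CG4820 with the ribosomal protein gene RpS25, and pad with the splicing factor gene SF2.

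Of these 20 genes, 18 had their strongest conservative promoter summit also within 500 bp of the TSS of another protein-coding gene, against 52.3% of all 2541 genes with a conservative promoter summit. For 17 of the 20 (85.0%) the summit was upstream of the gene, against 89.0% of all. These are counts of genes, and D19A and CG7386, both among the 20, share 1 summit. The difference was not tested, and neighbouring genes are not independent. The summit of CG18476 was near no other TSS.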
